A study of Rattus norvegicus with 36 samples.

Results

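Adipocyte lipid storage genes are followed here in whole mammary glands of rats: Plin1, Plin2, Adipoq, Lep, Cidec, Dgat2, Agpat2, Gpd1, Lipe and Gpam. Each was taken as every probe set that the platform annotation pairs with that gene symbol alone, which gave 16 probe sets for the 10 genes, of 31099 in the table. All 16 passed the filter on dim probe sets. Where a gene has 2 probe sets (Plin1, Plin2, Dgat2, Gpd1, Lipe and Gpam), the brighter one over all arrays stands for the gene and the other is given beside it.

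The glands came from rats of the strains Cop and F344, given N-nitrosomethylurea (NMU) or saline at 55 days of age and sampled 6 h, 1 d or 30 d afterwards. NMU alkylates DNA and is a mammary carcinogen in the rat, to which F344 is susceptible and Cop resistant. The 12 groups are NMU and saline control glands of Cop rats at 6 h, 1 d and 30 d and NMU and saline control glands of F344 rats at the same times, with 3 arrays each and 36 in all. The labels call the replicates biological without saying whether each is a separate animal, so the p-values measure the spread between these arrays, which may in part be technical. The sources used here give no NMU dose, no hour of collection and no batch. Since the glands at 30 d came from older rats than the others, time since treatment and age cannot be told apart in the controls.

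White adipocytes store triglyceride in a single large lipid droplet and release it as fatty acids when energy is needed. Gpd1 makes glycerol 3-phosphate, the backbone of triglyceride. Gpam and Agpat2 add fatty acids to that backbone in turn, and Dgat2 adds the last one. Plin1 and Cidec coat the adipocyte droplet, where Plin1 controls access of lipases and Cidec lets droplets fuse, whereas Plin2 coats droplets in many cell types, including the milk-fat droplets of mammary epithelium. Lipe is hormone-sensitive lipase, which breaks stored fat down. Adipoq and Lep encode the hormones adiponectin and leptin. In the rat mammary gland these adipocytes form the fat pad into which the epithelial ducts grow.

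Of 12 adipocyte marker genes outside the 10 genes, 11 were bright enough to test (Retn was not), and their mean level lay between 10.43 and 11.85 on the log2 scale on every array. Over all arrays, none of the 11 averaged below the overall median of the table, which the filter on dim probe sets made likely. Adipocyte marker RNA was thus present in each of the 36 glands. These levels do not show that the 10 genes were read in adipocytes alone. Other tissue was present too. The skeletal muscle score, a mean log2 deviation over 18 marker genes, ran from -2.48 ± 1.78 in F344 controls at 30 d to 2.31 ± 0.40 in F344 controls at 1 d (SD, n = 3 each). In a whole gland, fewer adipocytes and less RNA per adipocyte cannot be told apart. F344 controls 1 and 2 at 1 d were closer to each other than any other replicate pair (root mean square log2 difference 0.163, next 0.232). Cop NMU replicate 1 at 30 d stood apart from its group, at 0.596 and 0.645 from the other 2 arrays, the largest replicate distances. Its T and NK cell score was 0.63 against -1.73 and -1.66 in the other 2, its B cell score 1.201 against -2.67 and -2.46, and its muscle score -3.65 against 1.45 and 0.53. Calls of the 10 genes in Cop NMU glands at 30 d, against controls and against earlier NMU glands, are given with and without it. So are list counts for Cop NMU against control at 30 d, which was added after seeing the data. Other results that use it are given with it alone, among them group scores, strain comparisons at 30 d and correlations over group means.

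RefSeq promoter windows on the rat assembly GRCr8 were at hand for 7 of the 10 genes (2 windows for Plin2), covering the 250 bases before each annotated start. Dgat2, Gpd1 and Lipe had no entry. The C/EBP motif TTGCNNAA, sought on both strands, was in 4 of the 7 genes, against 9.22% of 33469 rat windows of the same length. C/EBP proteins are transcription factors of adipocyte differentiation, and 2 of their genes, Cebpa and Cebpd, changed in these glands as described further on. The 4 stretches are shown for comparison, 30 bases each, 5′ to 3′ on the gene's strand, with the motif in capitals.
Plin1: tctgagaggcaTTGCCCAAgattccctgga
Lep: tggccgggcagTTGCGCAAgttgcactggg
Cidec: ggaggactctaTTGCTCAAgggcccatggg
Gpam: ctcctccactgTTGCAAAAccatcctggac

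The Plin1 stretch is chr1:143086207-143086236 on the minus strand, with the motif at bases -77 to -70 before the start. The Lep stretch is chr4:58626458-58626487 on the plus strand, where the motif at -69 to -62 reads the same on both strands. The Cidec stretch is chr4:148137306-148137335 (minus strand, motif at -209 to -202) and the Gpam stretch is chr1:264175982-264176011 (minus strand, motif at -89 to -82). Both of these lie upstream of the listed start but inside the annotated span of their gene. Other motifs sought in the same windows were the PPAR half-site AGGTCA (14.1% of all windows), the direct repeat of that half-site (0.0508%), the sterol regulatory element TCACNCCAC (0.974%), the TATA box TATAAA (12.9%) and the glucocorticoid response element (0.373%), none of which was found in the 7 genes. The E-box CACGTG (5.59%) was found in Plin2, and the GC box GGGCGG (30.5%) in Plin2, Lep and Agpat2. A match describes these letters only.

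**Figure D1:**
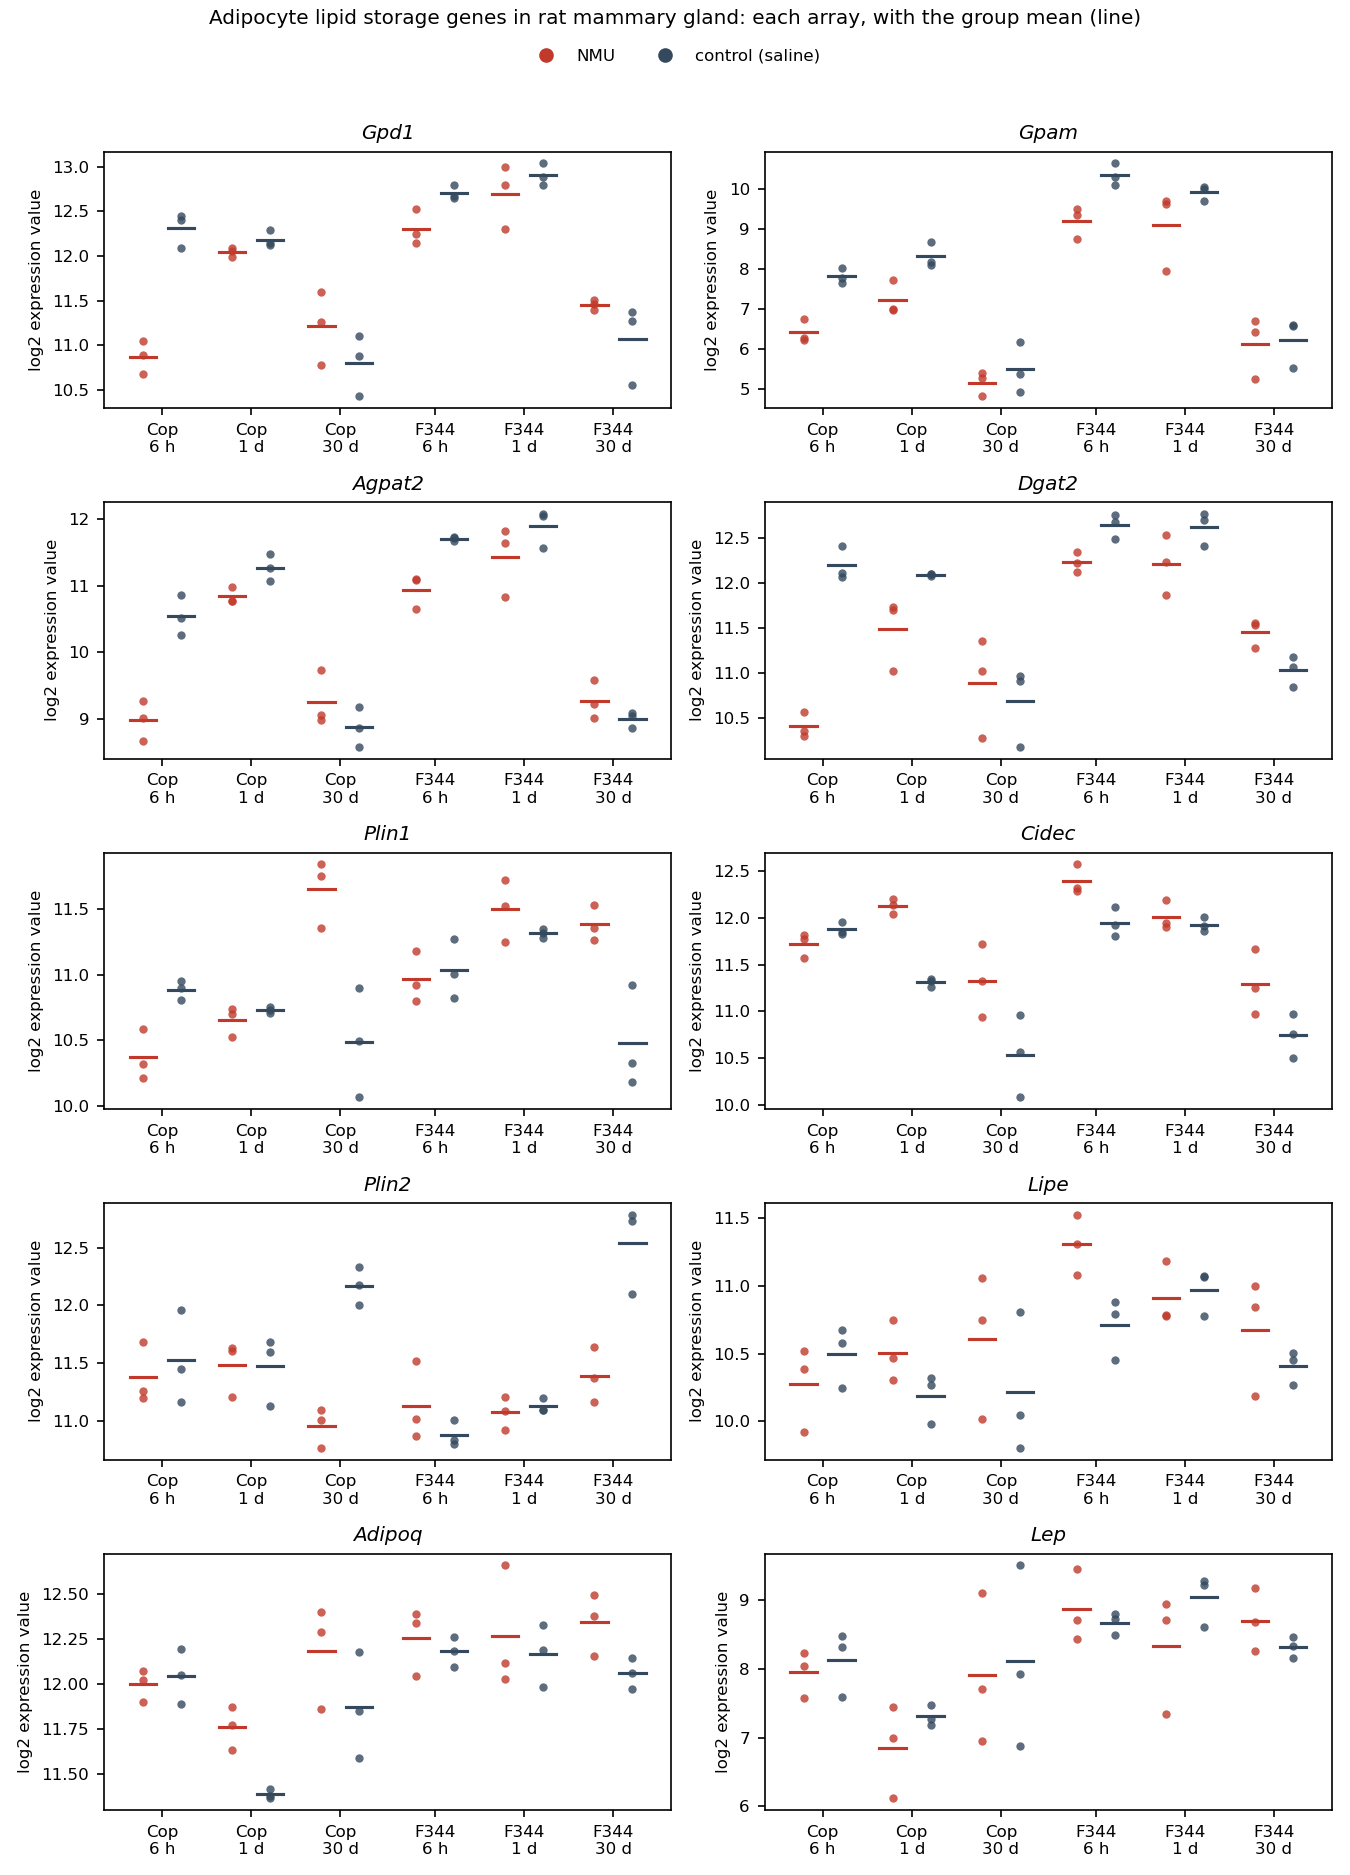
Log2 expression value (vertical axis) of the 10 genes in each of the 36 arrays, by strain and time (horizontal axis), with NMU arrays in red left of control arrays in dark blue and a line at each group mean of 3 arrays. The 4 enzymes of triglyceride assembly in the top panels are low in Cop NMU glands at 6 h and in all glands at 30 d, while Plin2 is highest in the 30 d controls of both strains.

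In Cop glands 6 h after NMU, 4 enzymes of triglyceride assembly were lower. Gpd1, Gpam, Agpat2 and Dgat2 were called there, with log2 changes from -1.79 to -1.40, although the Gpam call was lost with the replicate block. Of 14 other triglyceride assembly genes 1 was called lower and 0 higher, with a median of -0.06. The droplet proteins, the lipase and both hormones were not called. Of the 10 genes, 4 were thus lower and 0 higher, beside 2.83% of all tested probe sets called lower, 3.74% called higher and 6.57% called in either direction. A call here is an adjusted p under 0.05 in limma, with Benjamini-Hochberg adjustment over all 20749 probe sets tested. The median change of the 10 genes was -0.37, beside a median near zero over all genes tested. For 6 of the 10 genes every NMU array lay below every control array, beside 14.5% of all probe sets. These were the 4 enzymes, Plin1 (change -0.51) and Cidec (highest NMU array 11.82, lowest control array 11.83). Plin1 and Cidec were not called.

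Dgat2, the acyltransferase of the last step, measured 10.30, 10.57 and 10.36 in the NMU glands of Cop rats at 6 h, against 12.42, 12.07 and 12.11 in their controls. All 3 NMU arrays lay below every control array. The log2 change was -1.79 (SE 0.217, limma adjusted p = 5.3e-06), a 3.45-fold lower level, and its second probe set gave -1.74 (adjusted p = 8.61e-05). Agpat2, whose loss in humans causes congenital lipodystrophy, measured 8.68, 9.01 and 9.27 in NMU glands, against 10.86, 10.26 and 10.51 in control glands. Again no NMU array reached a control array, and the change was -1.56 (SE 0.223, limma adjusted p = 5.12e-05).

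Gpd1, the glycerol 3-phosphate dehydrogenase, measured 10.68, 10.89 and 11.05 in Cop NMU glands at 6 h, against 12.45, 12.09 and 12.40 in control glands. No NMU array reached a control array, and Gpd1 changed by -1.45 (SE 0.193, limma adjusted p = 1.92e-05), with -1.52 in its second probe set. Gpam, the acyltransferase of the first step, measured 6.24, 6.75 and 6.27 in NMU glands, against 7.77, 7.66 and 8.03 in control glands. These groups did not overlap either, but the estimate was less precise: -1.40 (SE 0.396, limma adjusted p = 0.0298). The Gpam call was lost with the replicate number as a block (adjusted p = 0.0652) and when any of 5 of the 6 arrays was left out (adjusted p up to 0.113). Its second probe set gave -1.42 (adjusted p = 0.00984).

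Markers of other cells moved in the same glands. Of 10 fibroblast markers 7 were higher, of 11 macrophage markers 3 were higher, and of 15 T and NK cell markers 8 were lower in Cop NMU glands at 6 h. Scores of T and NK cell markers averaged -0.74 ± 0.61 in NMU glands and 0.70 ± 0.22 in control glands, and the skeletal muscle score 0.41 ± 0.84 in NMU glands and -1.81 ± 1.25 in control glands (SD, n = 3 each). With either score as a covariate, Dgat2, Agpat2 and Gpd1 were still called, and Gpam was not (adjusted p = 0.0994 with muscle and 0.196 with T and NK cells). Of the 11 adipocyte markers outside the 10 genes, 4 were called lower (Pparg, Acsl1, Cebpa and Lpl) and the median change of the 11 was -0.10. The part of any shift in cell makeup in the fall of the 4 enzymes was not tested beyond these fits.

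At 6 h in F344 rats, the same comparison called 0 of the 10 genes (limma, background 0.622%). The enzymes nevertheless lay on the lower side: every NMU array was below every control array for Gpam, Agpat2, Gpd1 and Dgat2, which is 4 of 10 genes beside 8.49% of all probe sets. Gpam measured 8.76, 9.51 and 9.35 in F344 NMU glands, against 10.65, 10.31 and 10.11 in control glands, a change of -1.15 (95% interval -1.96 to -0.34, limma adjusted p = 0.196). Agpat2 measured 10.65, 11.10 and 11.08 in NMU glands, against 11.71, 11.67 and 11.74 in control glands. Its change of -0.77 had the smallest adjusted p of the 10 genes, 0.115.

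In the other direction, every NMU array lay above every control array in F344 at 6 h for 2 of the 10 genes. That is near the 15.4% of all probe sets, so nothing about the 10 genes is drawn from this count. Lipe, the lipase, measured 11.52, 11.31 and 11.08 in NMU glands, against 10.88, 10.45 and 10.79 in control glands, a difference of 0.60 that was not called (adjusted p = 0.278). Its second probe set gave -0.31. Cidec measured 12.57, 12.29 and 12.32 in NMU glands, against 12.12, 11.80 and 11.92 in control glands, a difference of 0.45 (adjusted p = 0.264).

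Whether the strains differed in their 6 h response was tested directly, as the change in Cop minus the change in F344. Dgat2 was the 1 gene of the 10 called, beside 0.198% of all probe sets called lower: its log2 change of -1.79 in Cop and -0.41 in F344 differed by -1.38 (SE 0.306, limma adjusted p = 0.0198). Its second probe set gave -1.30 and was not called (adjusted p = 0.103). Gpd1 differed by -1.05 with an adjusted p of 0.063. Agpat2 differed by -0.79 (95% interval -1.44 to -0.14, adjusted p = 0.327) and Gpam by -0.25 (95% interval -1.40 to 0.90, adjusted p = 0.905), so that a strain difference in either was not resolved. The Dgat2 call was lost with the replicate block (adjusted p = 0.0801), with the muscle score (0.0581) or the T and NK cell score (0.069) as a covariate, and when any of 5 of 12 arrays was left out. Over all 10 genes the median difference was -0.52, beside -0.08 for all genes tested, and all 10 were negative.

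**Figure D2:**
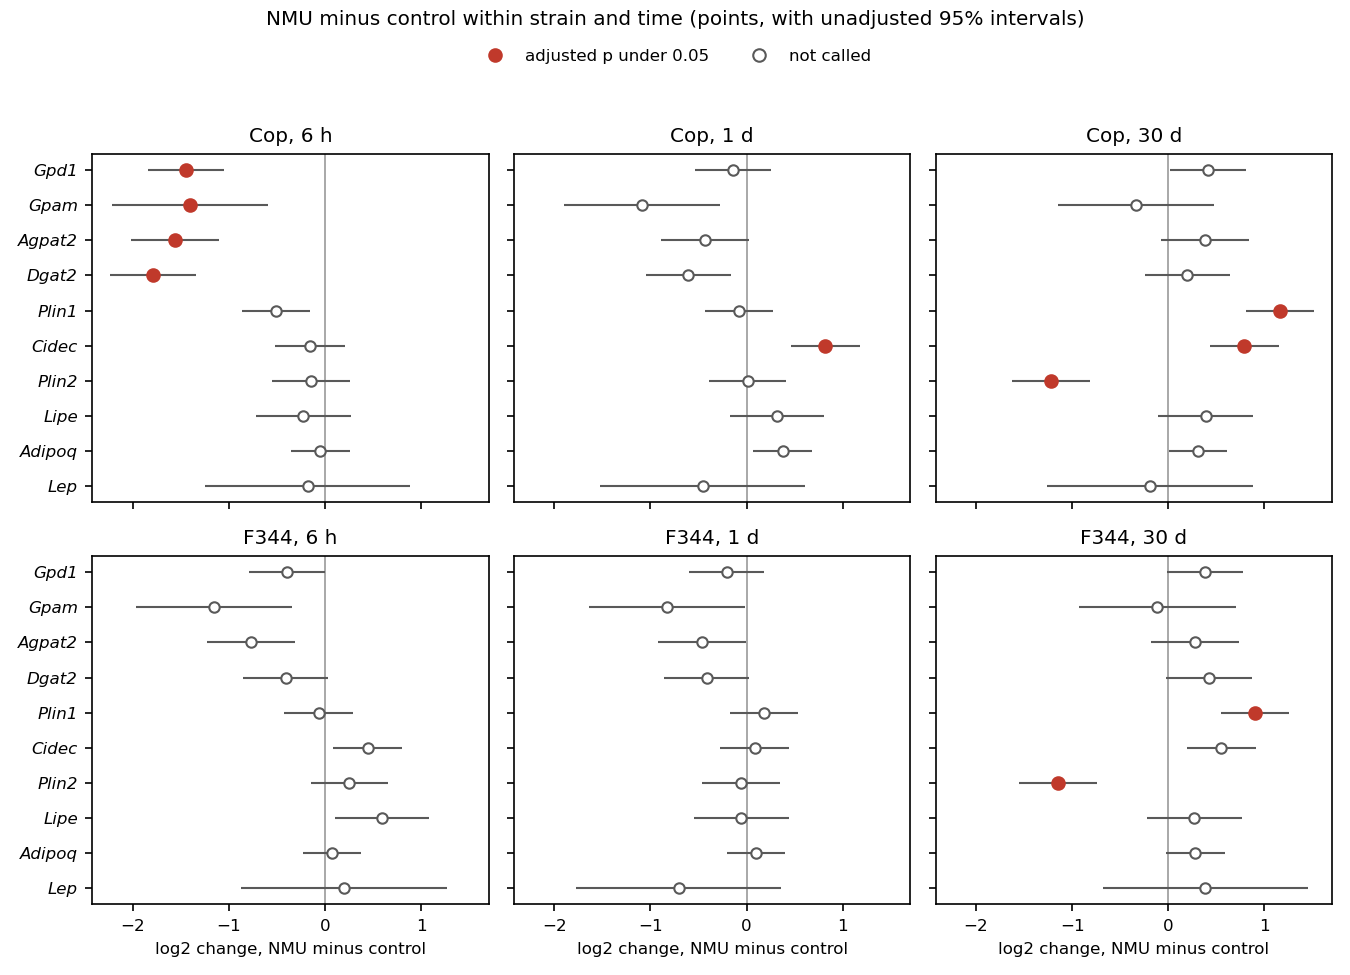
Log2 change, NMU minus control (horizontal axis), for each of the 10 genes in Cop (top) and F344 (bottom) at 6 h, 1 d and 30 d, with unadjusted 95% intervals. Filled red points passed an adjusted p of 0.05: the 4 assembly enzymes in Cop at 6 h, Cidec in Cop at 1 d and 30 d, and Plin1 (higher) with Plin2 (lower) in both strains at 30 d.

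By 1 d the enzymes of Cop NMU glands were no longer called, and 1 of the 10 genes was: Cidec, beside 0.41% of probe sets called higher. Cidec measured 12.20, 12.14 and 12.04 in Cop NMU glands at 1 d, against 11.26, 11.35 and 11.33 in control glands. The groups were clearly apart, with a rise of 0.82 (SE 0.176, limma adjusted p = 0.0175), or 1.76-fold. The call was lost with the replicate block (adjusted p = 0.0995) and when either of the first 2 NMU arrays or the first 2 control arrays was left out. At the same time Dgat2 measured 11.74, 11.03 and 11.70 in NMU glands and 12.11, 12.08 and 12.10 in control glands, a change of -0.61, and Gpam changed by -1.08, neither of which was called. Agpat2 averaged 10.84 in NMU glands and 11.27 in control glands, also without a call. Every NMU array still lay below every control array for Gpam, Agpat2, Gpd1 and Dgat2. That is 4 of 10 genes, beside 7.1% of all probe sets. For 2 of 10, Cidec and Adipoq, every NMU array lay above, beside 7.45%. Adipoq (0.37), Gpd1 (-0.14), Plin1 (-0.08) and Plin2 (0.01) were not called either.

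In F344 at 1 d, 0 of 10 genes were called by limma (background 0.983%). Gpam was lowest, with 9.70, 9.63 and 7.94 in NMU glands against 10.06, 9.997 and 9.71 in control glands, where the third NMU array sits far below the other 2. Lep changed by -0.71 and overlapped between groups. The strain difference in response at 1 d was called for 0 of 10 genes (background 0.207%). Cidec differed most, by 0.73 (limma adjusted p = 0.351).

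At 30 d the droplet proteins moved in opposite directions and did so in both strains. Plin1 was called higher and Plin2 lower after NMU in Cop and in F344, and Cidec was called higher in Cop. In Cop that made 2 genes higher and 1 lower, beside 4.42% and 5.48% of all probe sets. Without Cop NMU replicate 1 the Cop count was 4 higher and 1 lower, beside 8.11% and 10.3%. Added were Adipoq (0.47, limma adjusted p = 0.0293) and Lipe (0.68, limma adjusted p = 0.0466). The second Lipe probe set, not read without that array, gave 0.02 with all arrays. In F344 it made 1 higher and 1 lower, beside 0.665% and 2.63%. The strain difference in the 30 d response was called for 0 of the 10 genes and for 0% of all probe sets by limma.

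Plin1, the perilipin that guards the adipocyte droplet, measured 11.36, 11.75 and 11.84 in Cop NMU glands at 30 d, against 10.90, 10.07 and 10.50 in control glands. In F344 it measured 11.53, 11.26 and 11.35 in NMU glands, against 10.33, 10.18 and 10.92 in control glands. The NMU arrays lay above every control array in each strain, the highest control array being 10.90 in Cop and 10.92 in F344. The rise was 1.16 in Cop (SE 0.173, limma adjusted p = 4.8e-04) and 0.90 in F344 (SE 0.173, limma adjusted p = 0.00564). The second Plin1 probe set also rose in Cop (0.81, adjusted p = 0.0181) and gave 0.59 without a call in F344. Without Cop NMU replicate 1 the Cop values were 1.31 for Plin1 (adjusted p = 2.25e-05), -1.28 for Plin2 (adjusted p = 2.46e-04) and 0.98 for Cidec (adjusted p = 4.07e-04). Leaving out F344 control 1 or F344 NMU 1 ended the F344 call (adjusted p up to 0.0649).

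Plin2, read by probe set 1390383_at, measured 11.09, 11.005 and 10.77 in Cop NMU glands at 30 d, against 12.001, 12.34 and 12.17 in control glands. In F344 it measured 11.16, 11.37 and 11.64 in NMU glands, against 12.79, 12.10 and 12.73 in control glands. The groups did not overlap in either strain. The log2 change was -1.22 in Cop (SE 0.197, limma adjusted p = 6.48e-04) and -1.15 in F344 (SE 0.197, limma adjusted p = 0.00334). The dimmer Plin2 probe set, 1382680_at, went the other way without a call, by 0.39 in Cop and 0.46 in F344, so the Plin2 result rests on 1 of 2 probe sets. Averaging both probe sets gave -0.34 in F344, which was not called (adjusted p = 0.124).

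Over 12 comparisons the Plin2 probe sets disagreed in sign in 7, as did those of Lipe. Those of Gpd1 and of Gpam disagreed in fewer, and those of Plin1 and of Dgat2 agreed in sign in all 12. The files do not say which transcript each Plin2 probe set reads. The 6 arrays with the highest values of the brighter one, the 30 d controls, had milk protein scores between 0.15 and 2.11, but Cop controls at 1 d had scores between 0.61 and 2.18 with Plin2 at 11.69, 11.60 and 11.13. That score, a mean log2 deviation over 6 milk protein genes, was -1.84 ± 0.91 in NMU glands and 1.19 ± 0.96 in control glands of Cop rats at 30 d, and -0.12 ± 0.83 in NMU glands and 1.47 ± 1.04 in control glands of F344 rats at 30 d (SD, n = 3 each). Of the 6 milk protein genes 4 were called lower in Cop at 30 d (5 without Cop NMU replicate 1) and 0 in F344. Their part in the Plin2 result was not tested.

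**Figure D3:**
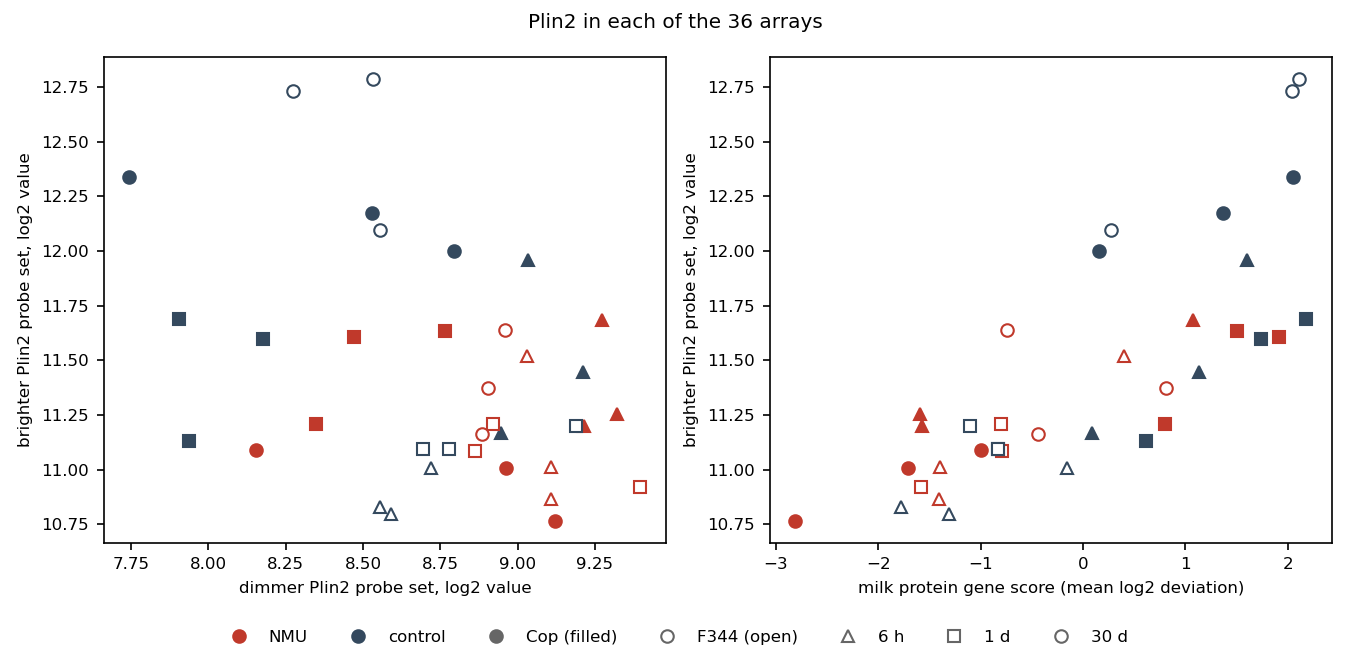
Log2 value of the brighter Plin2 probe set (vertical axis, both panels) in each of the 36 arrays against the dimmer Plin2 probe set (left) and against the milk protein gene score, a mean log2 deviation (right). Red is NMU and dark blue control, filled is Cop and open F344. The 6 control arrays at 30 d are the highest on the vertical axis, from 12.001 to 12.79, and the dimmer probe set does not follow them.

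Cidec, the droplet fusion protein, measured 10.94, 11.72 and 11.32 in Cop NMU glands at 30 d, against 10.96, 10.08 and 10.57 in control glands. The lowest NMU array and the highest control array overlapped. The change was nevertheless called, at 0.79 (SE 0.176, limma adjusted p = 0.00629), and the call was lost with the T and NK cell score as a covariate (adjusted p = 0.0755). In F344 the difference was 0.55 without a call. A model of the compared arrays alone called none of the 10 genes at 30 d in either strain, with the same log2 changes.

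With all arrays, the assembly enzymes, Lipe and the hormones did not pass at 30 d. Changes of Gpd1, Agpat2 and Dgat2 lay between 0.20 and 0.43 in both strains, and those of Gpam were -0.33 in Cop and -0.11 in F344. Lep spread widely, with 6.95, 9.10 and 7.71 in Cop NMU glands against 9.51, 6.88 and 7.93 in control glands. The groups overlap fully. Of the other markers, 6 of 8 endothelial and 5 of 10 fibroblast genes were higher and 8 of 15 T and NK cell and 4 of 6 B cell genes lower in Cop at 30 d. Without Cop NMU replicate 1 these were 7 endothelial and 9 fibroblast genes higher and 13 T and NK cell and 6 B cell genes lower, and 9 of 14 luminal epithelial genes were lower (1 with it). None of the 11 adipocyte markers was called in either strain, but 7 were higher in Cop without that array, with a median of 0.40 (0.26 with it). In F344 at 30 d the muscle score was 0.71 ± 0.98 in NMU glands and -2.48 ± 1.78 in control glands, and with it as a covariate the F344 calls of Plin1 (0.91) and Plin2 (-0.93) were both lost at an adjusted p of 0.0602.

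Control glands at 30 d were also set against those at 6 h and 1 d. With both strains together, 6 genes were lower and 1 higher in 30 d controls than in the 6 h and 1 d controls, beside 16.4% and 13.7% of all probe sets. The median difference of the 10 genes was -0.82, beside 0.01 over all genes tested. All 4 assembly enzymes, Cidec and Plin1 were lower, Plin2 was higher, and Lipe, Adipoq and Lep were not called.

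Gpam had values of 4.93 (lowest), 5.85 (median) and 6.61 (highest) in the 6 control arrays at 30 d, against 7.66, 9.20 and 10.65 in the 12 earlier control arrays. The groups did not overlap, and the log2 difference was -3.24 (SE 0.242, limma adjusted p = 1.1e-10). The second Gpam probe set gave -2.49 (adjusted p = 6.3e-10). The 30 d values of both probe sets lie near the array medians of 5.66 to 5.77, so no fold is given. Agpat2 had 8.58, 8.96 and 9.18 at 30 d, against 10.26, 11.52 and 12.08 earlier, a log2 difference of -2.41 (SE 0.137, limma adjusted p = 2.67e-13). No 30 d array came within a log2 unit of an earlier one. Gpd1 (-1.59), Dgat2 (-1.53) and Cidec (-1.12) were likewise lower on every 30 d array than on any earlier array.

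Plin1 differed by -0.51, and its arrays overlapped. Its call was lost with the luminal epithelial score as a covariate (adjusted p = 0.122). Plin2 had 12.001, 12.25 and 12.79 at 30 d, against 10.80, 11.15 and 11.96 earlier, and was 2.15-fold higher by its brighter probe set (log2 difference 1.10, SE 0.121, limma adjusted p = 5.94e-08). Its dimmer probe set gave -0.24 without a call. Adipoq averaged 11.96 ± 0.22 in 30 d controls (SD, n = 6) and 11.94 ± 0.36 in earlier controls (SD, n = 12), a difference of 0.02 (95% interval -0.16 to 0.21).

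Each strain was also tested on its own. In Cop controls 5 genes were lower and 1 higher (background 5.67% and 1.84%), and in F344 controls 6 were lower and 1 higher (background 13.3% and 13.8%). Plin1 was not called in Cop controls (-0.32, adjusted p = 0.185). Gpam differed by -2.57 in Cop and -3.90 in F344, and Agpat2 by -2.03 in Cop and -2.80 in F344. The difference between the strains was tested and was called for 1 of the 10 genes, Plin2: 0.67 in Cop and 1.53 in F344, apart by -0.86 (SE 0.242, limma adjusted p = 0.0348), beside 2.68% of all probe sets called lower in that test. This Plin2 call rests on the brighter probe set alone, and the dimmer one was not tested for it. The dimmer one averaged 9.06, 8.01 and 8.36 in Cop controls at 6 h, 1 d and 30 d. In F344 controls it averaged 8.62, 8.89 and 8.45. Beside these values, 12 of 14 luminal epithelial markers were higher and 9 of 11 other adipocyte markers lower in the 30 d controls, and the median of the 11 adipocyte markers was -0.56. Between 1 d and 6 h controls, 0 of 10 genes were called by limma (background 0.183%).

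**Figure D4:**
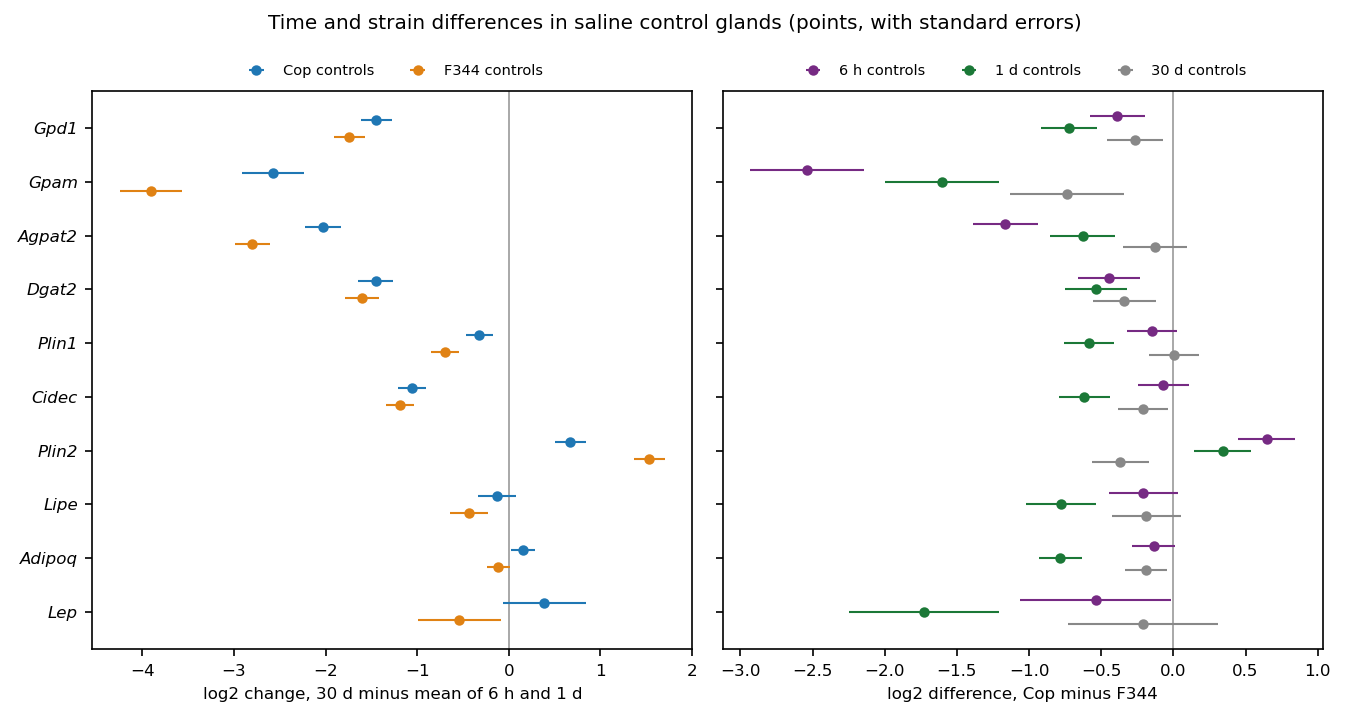
Saline control glands only: left, log2 change at 30 d minus the mean of 6 h and 1 d (horizontal axis) in Cop and F344; right, log2 difference Cop minus F344 at 6 h, 1 d and 30 d. Bars are standard errors of the fit. Gpam and Agpat2 lie farthest below zero on the left, Plin2 lies above zero, and the strain differences on the right are nearest zero at 30 d for most genes.

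The NMU glands at 30 d and earlier were compared in the same way. In F344 NMU glands 5 genes were lower at 30 d than earlier (background 20%), with a log2 change of -3.03 for Gpam and -1.91 for Agpat2. In Cop NMU glands 4 were lower, among them Gpam at -1.66 and Plin2 at -0.48, and Plin1 was higher by 1.13 (limma adjusted p = 9.3e-06), beside 20.4% of probe sets lower and 11.6% higher. In Cop, Plin1 and the brighter Plin2 probe set thus ran opposite to the 30 d difference in the controls. Plin1 was not called in those controls (-0.32, limma adjusted p = 0.185). The dimmer Plin2 probe set, not tested here, averaged 9.27, 8.53 and 8.74 in Cop NMU glands at 6 h, 1 d and 30 d. In Cop controls it averaged 9.06, 8.01 and 8.36. Without Cop NMU replicate 1 at 30 d, Gpam and Plin2 stayed lower and Plin1 higher, and Adipoq was called higher too (0.47, limma adjusted p = 0.0107). The calls of Cidec and Agpat2 were then lost (adjusted p = 0.0539 and 0.0606). The share of all probe sets called without that array was not computed for this comparison. Dgat2 and Gpd1 were not called there: Dgat2 averaged 10.41 ± 0.14 in Cop NMU glands at 6 h, 11.49 ± 0.40 at 1 d and 10.89 ± 0.55 at 30 d (SD, n = 3 each).

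Strains differed in the controls as well. Over all times 8 of the 10 genes were lower in Cop than in F344 control glands and 0 higher, beside 12.9% of all probe sets called lower and 13.1% called higher, with a median of -0.42 for the 10 genes and 0.03 for all genes tested. Gpam stood out, with 4.93, 7.77 and 8.68 (lowest, median, highest) in the 9 Cop controls, against 5.52, 9.997 and 10.65 in the 9 F344 controls. Over all times the ranges overlap, but at 6 h the 3 Cop arrays lay between 7.66 and 8.03 and the 3 F344 arrays between 10.11 and 10.65. Averaged over the times, Gpam was lower in Cop by a log2 difference of -1.63 (SE 0.229, limma adjusted p = 5.65e-06). By time the difference was -2.54 at 6 h, -1.60 at 1 d and -0.74 at 30 d. The last was not called (limma adjusted p = 0.452), and the 30 d values lie near the array medians, so no fold is given. Agpat2 (-0.64), Gpd1 (-0.46), Dgat2 (-0.44), Adipoq (-0.37) and Cidec (-0.30) were lower in Cop too.

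Lep (-0.83, adjusted p = 0.043) and Lipe (-0.39, adjusted p = 0.0365) were called too, but the Lep call was lost when any of 15 of the 18 control arrays was left out and the Lipe call when any of 10 was. The Lipe difference rests on 1 of 2 probe sets: the second gave -0.02 (adjusted p = 0.918), the mean of both -0.21 (adjusted p = 0.098), and the brighter one -0.03 with the brown adipocyte score as a covariate (adjusted p = 0.973). The Cidec call was lost without any of 4 arrays. Lep in Cop controls at 1 d measured 7.48, 7.27 and 7.19, against 9.28, 9.23 and 8.61 in F344 controls. That is the only time at which Lep was called between the strains (-1.73, adjusted p = 0.0234).

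By time, Cop controls were lower than F344 controls in 2 genes and higher in 1 (Plin2) at 6 h, beside 7.36% and 11.6% of probe sets. They were lower in 7 genes at 1 d (9.35%) and in 0 at 30 d (1.62%, limma, with none higher). The NMU glands gave 7 genes lower in Cop at 6 h (8.06%), 5 at 1 d (4.78%) and none at 30 d (3.21%). Whether the strain difference changed with time was tested only as the strain difference in the 30 d comparison above.

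Muscle and brown adipocyte scores were lower on every Cop control array than on any F344 control array at 6 h and at 1 d. The brown adipocyte score, over 5 genes of which Ppargc1a and Cox7a1 were dim, was -0.61 ± 0.11 in Cop and 0.93 ± 0.12 in F344 controls at 6 h, and -0.63 ± 0.10 in Cop and -0.74 ± 0.23 in F344 controls at 30 d (SD, n = 3 each). Ucp1, the defining brown fat gene, was not among the tested probe sets, and neither were Dio2, Elovl3, Ppara and Prdm16. The score thus rests on Cidea, Cox8b, Ppargc1a, Cpt1b and Cox7a1, and whether it read brown fat apart from muscle was not tested. In F344 NMU glands at 1 d it was -0.14, 1.02 and 0.50, with muscle scores of -2.43, 2.44 and 1.31. In Cop controls at 30 d it was -0.58, -0.75 and -0.55, with muscle scores of -1.21, -0.39 and -0.46. The muscle score averaged -1.81 ± 1.25 in Cop and 2.10 ± 0.57 in F344 controls at 6 h, but -0.69 ± 0.45 in Cop and -2.48 ± 1.78 in F344 controls at 30 d. In the strain comparison 4 of the 5 brown adipocyte, 10 of 18 muscle, 7 of 11 adipocyte and 5 of 10 fibroblast markers were lower in Cop, with 1 fibroblast marker higher. Higher in Cop were 4 of 6 milk protein genes (median 1.34), 6 of 10 basal myoepithelial (1 lower), 4 of 8 endothelial and 3 of 14 luminal epithelial markers. Their part in the strain difference was not tested beyond the covariate fits. With the brown adipocyte score as a covariate, chosen after seeing the data, Gpam alone of the 8 genes was still called lower in Cop.

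The wider pathway was read from 4 lists with 68 entries, of which 60 were tested. In Cop at 6 h, 1 of 14 other triglyceride assembly genes was lower (Acsl1, the ligase that activates fatty acids, -0.99) and none higher. Of 13 other droplet and lipolysis genes 2 were lower: Pnpla3, a droplet protein that falls with fasting (-3.63), and G0s2, an inhibitor of the lipase Pnpla2 (-1.60). Of 15 genes of lipolysis signalling 1 was lower, the adipocyte adrenergic receptor Adrb3 (-1.37). Among 18 regulators, uptake genes and adipokines 5 were lower and 1 higher. Srebf1 (-1.23), Mlxipl (-1.50), Pparg (-0.96) and Cebpa (-0.76), which encode transcription factors of fat synthesis and adipocyte identity, were lower, and Cebpd (0.82), the 1 gene that was higher, is named after its value was seen. Cebpa and Cebpd belong to the family whose motif is printed above for Plin1, Lep, Cidec and Gpam, and of those 4 only Gpam was called in the same comparison.

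In F344 at 6 h the same lists gave 2 calls among 60 genes: Pnpla3 was lower (-2.79) and Abhd5, the activator of Pnpla2, higher (0.55). At 1 d Pnpla2, the lipase of the first step of fat breakdown, rose in Cop by 1.26 and Abhd5 by 0.58, beside Fabp5 at -1.25, while in F344 Mogat2 was lower (-1.60). At 30 d in Cop, Plin4 (1.11), Mgll (0.88), the last lipase of the pathway, Adcy3 (0.89), Npr1 (0.85), Adra2a (0.63), Nr1h3 (0.76), Dgat1 (0.40) and Adipor1 (0.24) were higher and Fabp5 (-0.83) lower. At 30 d in F344, Gpat4 (-0.48), Fabp5 (-0.93) and Apln (-1.39) were lower and none was higher. Without Cop NMU replicate 1 the counts at 30 d in Cop were 1, 5, 7 and 6 higher in the 4 lists (1, 2, 3 and 2 with it) and 1 lower in all. Median changes of the 4 lists at 30 d lay between 0.13 and 0.29 in Cop and between 0.03 and 0.32 in F344, beside -0.03 and -0.05 for all genes tested.

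Across the 12 group means, the 10 genes did not vary as 1 block. Agpat2 and Gpd1 ran most nearly in parallel (Pearson r = 0.97 over 12 group means), followed by Dgat2 with Gpd1 (0.97), while Plin2 ran against Cidec (-0.73) and Plin1 (-0.68). These are descriptions over groups that share arrays' strain, time and makeup. Group means spanned 5.20 log2 units for Gpam, 3.02 for Agpat2, 2.23 for Dgat2 and 2.10 for Gpd1, but only 0.96 for Adipoq and 1.11 for Lipe.

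The 12 group means of a gene were put in order, and the steps between neighbours were set against the pooled SD of replicates. That SD is of single arrays, whereas each mean is of 3 arrays. The step was larger for 5 of 11 neighbouring steps in Gpam, 4 in Dgat2, and 3 in Agpat2 and in Cidec. It was larger for 2 in Gpd1 and in Plin2, 1 in Plin1, Adipoq and Lipe, and 0 in Lep. Plin1 was lowest in Cop NMU glands at 6 h (10.37 ± 0.19) and highest in Cop NMU glands at 30 d (11.65 ± 0.26, SD, n = 3 each).

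By a rule of likeness over the 12 group means, the genes most like Dgat2 were Gnb5 (Pearson r = 0.97), Slc1a5 (0.96) and Acaca (0.96), the last being the first enzyme of fatty acid synthesis. Those most like Plin2 were Slc30a4, a zinc transporter (0.96), Got2 (0.95) and Rab25 (0.94). Plin1 had Clmp (0.91), Atf5 (0.88) and Rgcc (0.87) nearest to it, and Lep had Klhdc7a, Asah2 and Atp9a (0.89, 0.89 and 0.88).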

How the data were processed

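The authors deposited log2 expression values per probe set for 36 Affymetrix rat arrays. The submitters' processing notes name GCOS, and no source used here says how signals were summarized or normalized. Array medians lay between 5.66 and 5.77, so the values were used as they are. Arrays have no read depth, and their number limits the precision. Testing required a value above the array's 40th percentile on at least 3 arrays, which kept 20749 of 31099 probe sets, besides 57 control probe sets left out. A gene stands for its probe set with the highest mean. Symbols come from the platform annotation, where 20832 probe sets have 1 symbol, 436 several and 9831 none.

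With limma 3.58.1 (R 4.3.3; lmFit, eBayes with trend and robust options) a mean per group was fitted over the 36 arrays. Two-sided p-values were adjusted by Benjamini-Hochberg per comparison (12 in all) and called under 0.05. The fit was tested on simulated data. A score is the mean deviation of a list's genes from their own means. The genes, lists and tests were chosen with earlier results of these data known. All 10 genes are named, with up to 4 called genes of smallest p per wider list and NMU comparison, and the 3 genes of highest Pearson r for Plin1, Lep, Dgat2 and Plin2.

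Replicate numbers are those of the labels. Deviations of equally numbered NMU and control arrays correlated at 0.114, 0.142 and 0.435 in Cop at 6 h and at 0.202, 0.424 and 0.315 in Cop at 1 d. In F344 they correlated at -0.0137, 0.35 and 0.507 at 6 h and at 0.249, -0.0807 and 0.251 at 1 d. At 30 d the values were 0.0594, -0.0551 and -0.351 in Cop and -0.0907, -0.248 and -0.265 in F344. The main fit, behind the counts and figures, has no pairing. The replicate block was run as an alternative, and blocked values stand beside the calls they change. Alternatives were quantile normalization, other filters, plain empirical Bayes, the block, the compared arrays alone, cell scores as covariates, the mean of probe sets, and leaving out each array.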

Additional observations from a re-analysis of the deposited data

Results flagged for a closer look

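In 4 genes the response to NMU at 6 h differed between the strains by the test of the difference itself (change in Cop minus change in F344, limma). Dgat2 differed by -1.38 (SE 0.306, adjusted p = 0.0198), with a change of -1.79 in Cop and -0.41 in F344. Srebf1, a transcription factor of fatty acid synthesis, differed by -1.24 (SE 0.211, adjusted p = 0.00138), with -1.23 in Cop and 0.01 in F344. Pparg, the regulator of adipocyte identity, differed by -1.18 (SE 0.274, adjusted p = 0.0274), with -0.96 in Cop and 0.22 in F344. Adrb3, the adrenergic receptor of adipocytes, differed by -1.60 (SE 0.353, adjusted p = 0.0186), with -1.37 in Cop and 0.23 in F344. The background of probe sets called lower in this comparison was 0.198%. Alternatives for the 3 genes other than Dgat2 were added after seeing the data. With the replicate block only the Srebf1 call of the 4 was kept, and those of Adrb3 (adjusted p = 0.0931), Pparg (adjusted p = 0.142) and Dgat2 (adjusted p = 0.0801) were lost. The Dgat2 call was also lost with the muscle score (adjusted p = 0.0581) or the T and NK cell score (adjusted p = 0.069) as a covariate. Its second probe set was not called (adjusted p = 0.103), whereas that of Srebf1 was (-1.21, adjusted p = 0.0148). The Pparg call was lost with the luminal epithelial score (adjusted p = 0.0569). Leaving out 1 of 12 arrays ended the call in 9 runs for Pparg, 5 for Dgat2, 4 for Adrb3 and 0 for Srebf1.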

How the results depend on the processing

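Of 26 gene results called, 286 runs under alternatives kept 248 calls, lost 38 and reversed 0, and 342 runs without 1 array kept 297, lost 45 and reversed 0. Counts of the 10 genes called moved by over 1.5 times as follows. With the compared arrays alone they were 0 in F344 at 30 d (2 in the full model), 0 in Cop at 30 d (3), 2 in Cop at 1 d (1), 3 for the strain difference at 6 h (1), 1 for that at 1 d (0) and 2 for 1 d against 6 h controls (0). With the replicate block they were 0 in Cop at 1 d and 0 for the strain difference at 6 h. In Cop at 6 h and 1 d the block ended the calls of Gpam and Cidec and no other call of the 10 genes. The muscle score gave 0 in F344 at 30 d, 0 for the strain difference at 6 h and 5 for Cop against F344 controls (8). The T and NK cell score gave 0 for the strain difference at 6 h and 5 for the strain comparison, and the brown adipocyte score, added after seeing the data, gave 1. The mean of probe sets gave 1 in F344 at 30 d. Except where a value above shows it, the cause was not tested.

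Without 1 array in turn, counts ranged from 0 to 0 in F344 at 6 h and at 1 d, 1 to 3 in F344 at 30 d, 3 to 4 in Cop at 6 h, 0 to 1 in Cop at 1 d, 3 to 5 in Cop at 30 d, 0 to 1 for the strain difference at 6 h, 0 to 0 for it at 1 d and at 30 d, 5 to 9 for Cop against F344 controls, 0 to 0 for 1 d against 6 h, and 7 to 8 for 30 d against earlier. Quantile normalization moved the median of all genes by no more than 0.1. With 3 arrays a group, many small log2 differences were not resolved.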
